A study of Sus scrofa with 32 samples.

Results

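Cell cycle and proliferation genes were examined as a set of 41 genes, chosen by name and matched by pig gene symbol to the gene identifiers of the count tables. All 41 had an entry among the 30185 genes counted. By role, 17 belong to mitosis and general proliferation, 10 to S phase and DNA synthesis, 9 to the cyclins, kinases and E2F of the G1 and S phases, and 5 to the inhibitors of cyclin-dependent kinases together with RB1. No expression value was used to choose them, although earlier results of these data were known.

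The libraries came from the endometrium, the lining of the uterus, of 8 gilts of the pig (Sus scrofa) on Day 14. The prepuberal gilts had been synchronised with eCG and then hCG. The 4 pregnant gilts (P139, P39, P41 and P43) were inseminated with semen of a German Landrace boar. The 4 nonpregnant pigs, called cyclic here (C128, C40, C42 and C78), received semen supernatant of the same boar after the same synchronisation. Each gilt is named by the first letter and the number of its library labels. Frozen sections were dissected with a laser into stroma (S), blood vessels (BV), and the epithelium of the glands (GE) and of the lumen (LE), and 31 libraries were analysed, with 4 gilts in each group and compartment except pregnant GE, where 3 were at hand. In pregnant gilts the tissue was taken from the hyperemic zones after the conceptus had been removed, and the corresponding choice of site in cyclic gilts is not given in the sources used here.

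As background, a dividing cell passes from G1 into S phase, copies its DNA, and then enters mitosis. D-type cyclins with CDK4 or CDK6 act early in G1, cyclin E with CDK2 at the entry into S phase, and cyclins A and B with CDK1 towards mitosis. The retinoblastoma protein RB1 holds back the E2F factors until it is phosphorylated, and E2F then drives genes of DNA synthesis, whereas many mitotic genes are switched on later through CCAAT boxes and the cell cycle genes homology region (CHR). The CDKN1 and CDKN2 proteins inhibit the cyclin-dependent kinases and accompany withdrawal from the cycle.

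Promoters of 3 members are printed, because their letters hold such elements. They are MKI67, the proliferation antigen Ki-67, CDK1, the mitotic kinase, and MCM6, a subunit of the replicative helicase. Levels of MKI67 and MCM6 are described later. A window of 250 bases on the gene's own strand, with 220 bases before the annotated start and 30 bases from it on, was read from Sscrofa11.1 for 40 of the 41 members. CDK6 has no window, since the annotation does not list it as protein-coding. Capitals mark a CHR (TTTGAA), an E2F site (TTTGGCGC, TTTCGCGC, TTTCCCGC or TTTGCCGC) or a CCAAT box (CCAAT), each on either strand, and neighbouring matches can run together.
MKI67, chr14:137296283-137296532, minus strand: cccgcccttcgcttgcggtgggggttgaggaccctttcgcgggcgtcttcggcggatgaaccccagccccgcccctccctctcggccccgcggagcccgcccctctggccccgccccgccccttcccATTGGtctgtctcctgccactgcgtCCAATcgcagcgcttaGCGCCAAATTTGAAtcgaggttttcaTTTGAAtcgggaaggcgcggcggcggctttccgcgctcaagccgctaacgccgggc
CDK1, chr14:64233725-64233974, plus strand: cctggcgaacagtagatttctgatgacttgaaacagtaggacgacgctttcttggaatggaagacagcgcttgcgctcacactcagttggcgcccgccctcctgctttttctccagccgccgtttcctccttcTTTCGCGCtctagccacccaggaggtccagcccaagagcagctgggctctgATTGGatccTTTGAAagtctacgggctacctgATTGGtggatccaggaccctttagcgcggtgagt
MCM6, chr15:15923418-15923667, plus strand: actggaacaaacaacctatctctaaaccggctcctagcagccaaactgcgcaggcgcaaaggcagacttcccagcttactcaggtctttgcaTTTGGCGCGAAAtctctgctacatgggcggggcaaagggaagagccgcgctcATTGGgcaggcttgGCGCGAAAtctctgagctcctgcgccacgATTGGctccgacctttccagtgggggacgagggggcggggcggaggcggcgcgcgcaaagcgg

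Counting the base before the start as -1, the MKI67 window holds the E2F letters from -52 and the CHR letters from -44 and again from -26, so that the E2F letters and the first CHR lie side by side. In CDK1 an E2F match begins at -87 and a CHR at -27. MCM6 has no CHR in the window but 3 E2F matches, at -128, -124 and -62, of which the first pair share letters. Over the windows of the 17 mitotic members, 82.4% held a CCAAT box and 41.2% a CHR, beside 32.1% and 12.2% of the 20644 windows of all protein-coding genes. An E2F match was found in 17.6% of the mitotic members (3 genes) and 20% of the 10 S phase members (2 genes), against 2.71% of all windows. None of the 8 windows of G1 and S cyclins, kinases and E2F held one. The CCAAT share was 60% in the S phase members, 37.5% in the G1 and S group and 20% (1 gene) in the group of inhibitors and RB1. A match is a run of letters and no more, and a window without a match says only that these letters are not there.

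Total counts ranged from 2415216 to 7081556 per library, with a median of 3624021, and 3 counts in a library equal 0.424 to 1.24 CPM, counts scaled to the library total. Every level given here is CPM of the deposited counts after a TMM normalisation over all 31 libraries, and the floor of 3 counts covers counting error only. The 9 epithelial marker genes summed to 2327 to 3359 CPM in LE and 1511 to 1845 CPM in GE, and to at most 300.3 CPM in BV and 456 CPM in S. The 9 endothelial markers summed to 1573 to 3115 CPM in BV, 535 to 2883 CPM in S, 135 to 1052 CPM in LE and 16.2 to 185 CPM in GE. BV also held 1517 to 18835 CPM of 8 smooth muscle and pericyte markers and 26514 to 93070 CPM of 7 fibroblast markers, so that markers of the vessel wall and of connective tissue stood beside those of endothelium. Of 10 genes listed as conceptus markers, CYP19A1, IL1B2 and CDX2 had 0 counts in every library, and the 10 together summed to 0.606 to 102 CPM. The symbol PAG1 on this list belongs in the pig annotation to another gene than the pregnancy-associated glycoproteins, so the full sum is no measure of conceptus RNA. In cyclic BV the sum was 61.6 to 95.6 CPM with PAG1 and 0 to 1.4985 CPM without it. Without PAG1 the sum in gilt P43 was 16.01 CPM in LE, 14.0 in S and 6.31 in BV, beside at most 4.82, 7.87 and 1.4985 CPM in the cyclic libraries of these compartments. In captured tissue, fewer cells of a type and less RNA per cell cannot be told apart.

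Of the 41 members, 37 were detectable in BV, 31 in S, 30 in LE and 23 in GE, where detectable means listed in the authors' filtered table of that compartment (11096, 11935, 12002 and 11905 genes in the same order). As to how widely they were listed, 22 members were detectable in 4 compartments, 6 in 3, 4 in 2 and 7 in 1. PLK1, the polo-like mitotic kinase, and E2F1, the S phase transcription factor, were listed in none, with a highest single value of 6.53 CPM for PLK1 and 11.4 CPM for E2F1, both in BV of cyclic gilts. The mitotic genes CDK1, CCNB2, BUB1 and AURKA and the cyclin CCNE2 were detectable in BV alone, MCM5 in LE alone and CCNE1 in GE alone.

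**Figure D1:**
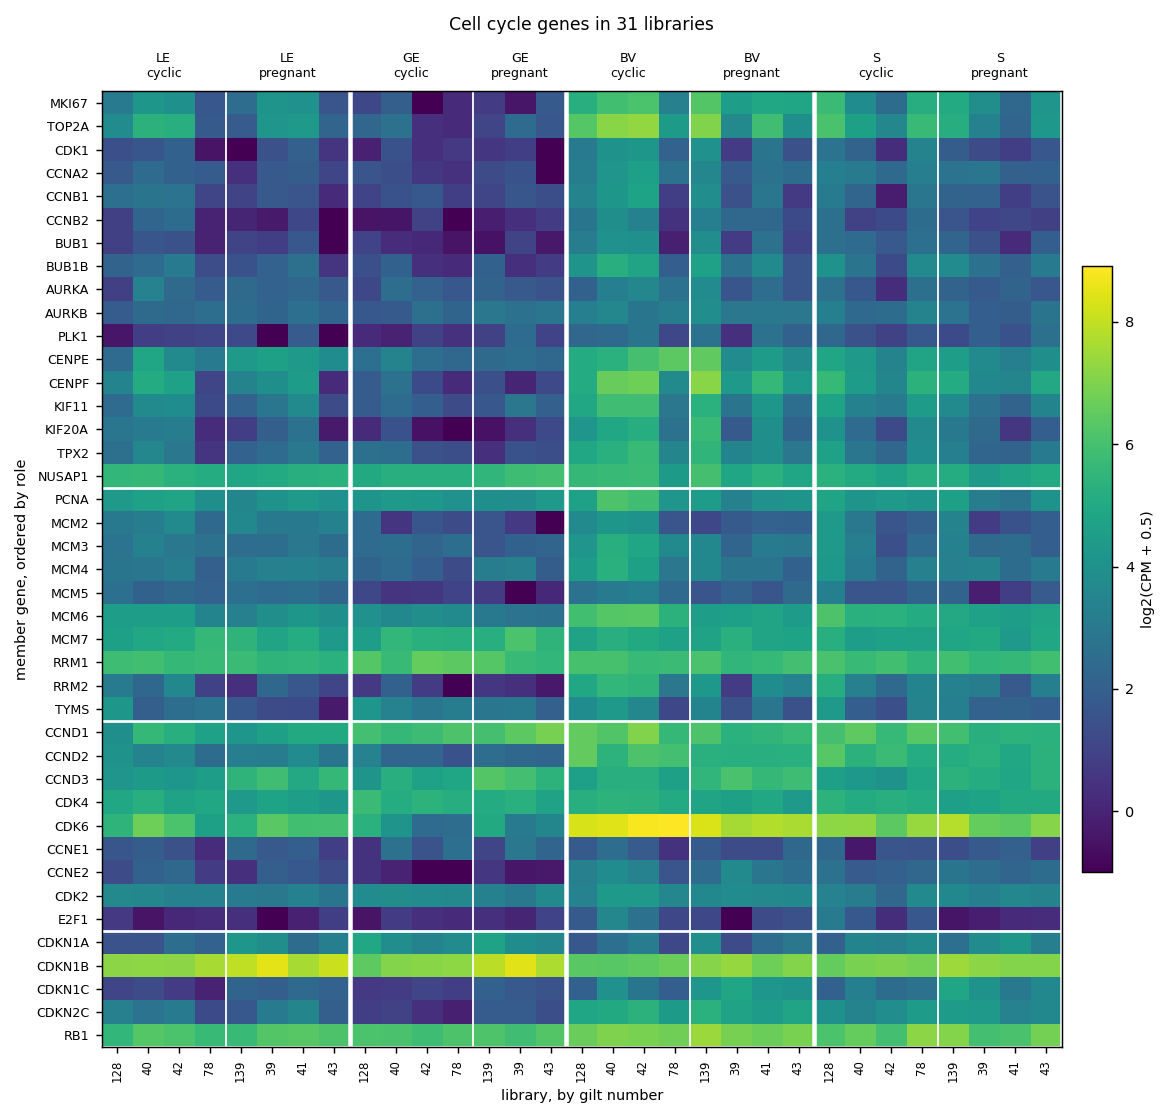
Level of each of the 41 members (rows, ordered by role) in each of the 31 libraries (columns, by compartment, state and gilt number), as log2(CPM + 0.5). The block of mitotic genes is brightest in BV of gilts C40, C42 and P139 and darkest in GE, while CDKN1B is bright in every library.

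Per kilobase of exon, CDKN1B, which encodes the inhibitor p27, was the highest member in every compartment. Its mean was 110 CPM per kb in LE, 95.1 in GE, 66.5 in S and 57.0 in BV. In BV it was followed by the cyclin CCND2 with 42.5 CPM per kb, then by RB1 (25.5), CDK4 (25.5), the replication clamp PCNA (25.3) and CDK6 (23.9). In GE the next members were CDK4 with 30.6, the ribonucleotide reductase subunit RRM1 with 22.4 and the cyclin CCND1 with 16.7 CPM per kb. Most mitotic members were far lower per length, with TOP2A, the mitotic topoisomerase, at 13.4 CPM per kb in BV and 0.531 in GE, and MKI67 at 3.58 in BV and 0.127 in GE. The mitotic member NUSAP1 stood well above both in GE, with 31.5 to 61.8 CPM there over 3821 bases of exon. By mean level 31 of the 41 members, and 16 of the 17 mitotic ones, were highest in BV, a compartment that held the highest mean of 20.4% of the 13887 genes detectable anywhere.

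The largest contrast between compartments lay in the mitotic genes, which were low in GE and high in BV. MKI67 (chr14:137266622-137296312) ranged in BV from 9.35 to 76.1 CPM with a median of 32.9, in S from 4.59 to 53.5 CPM with a median of 15.9, in LE from 2.56 to 18.3 CPM with a median of 11.7, and in GE from 0 to 3.46 CPM with a median of 1.18. The 7 GE libraries held only 43 MKI67 counts in all, and every one of them lay below every BV library. The difference of GE from BV was -4.83 on the log2 scale (SE 0.73), or 28.5-fold lower in GE, with an adjusted p of 5.99e-06 in the joint edgeR quasi-likelihood fit that keeps the gilt as a block.

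TOP2A (chr12:22001300-22028452) had 12.1 to 159 CPM in BV (median 68.3), 4.26 to 66.1 CPM in S (median 21.7), 2.96 to 40.6 CPM in LE (median 15.3) and 0.636 to 6.22 CPM in GE (median 2.69). GE and BV did not overlap, while LE and S did overlap with BV. The fitted difference was -4.39 (SE 0.77) for GE against BV, with an adjusted p of 3.54e-05 in the same edgeR fit, and -2.02 (SE 0.61) for LE against BV, with an adjusted p of 0.00673. CENPF, a kinetochore protein, was 25.3-fold lower in GE than in BV and KIF20A, a kinesin of cytokinesis, 19.97-fold lower. Neither was detectable in GE, with 2 to 26 counts of CENPF and 0 to 10 of KIF20A per library there, so these folds rest on few counts. The spindle factor TPX2 was 9.15-fold lower in GE. The B-type cyclin CCNB2, the checkpoint kinase BUB1 and CDK1 were detectable in BV alone, so that they entered the test through the compartment where they are high, and their folds are left out.

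Of the 16 mitotic members tested, 14 were lower in GE than in BV at a false discovery rate of 1% (29.9% of all genes). Among the 14 were 9 that were not detectable in GE. Of the 6 detectable in both GE and BV, 5 were lower, namely TOP2A, AURKB, CENPE, KIF11 and TPX2. The exceptions among the 16 were AURKA, a spindle pole kinase, with -0.97 (SE 0.39), and NUSAP1, a spindle protein, with 0.11 (SE 0.19). NUSAP1 behaved unlike the other 16 in level too, with 31.5 to 61.8 CPM in GE against 20.8 to 63.4 CPM in BV. NUSAP1 overlaps NDUFAF1 and OIP5, and AURKA overlaps CSTF1. Since the strand setting of the counting is not given, reads of these genes may be shared. Between LE and BV 13 of the 16 were lower in LE (23.4% of all genes), and between GE and S 11 were lower in GE (31.4%). CDK1, CCNB2, BUB1 and AURKA were detectable in BV alone, so the filter itself favours a lower level in LE. These genes and CCNB1 were detectable in neither GE nor S. Between LE and GE 3 were higher in LE (25.9% of all genes), namely MKI67 (2.98, SE 0.75), CENPF (2.77, SE 0.72) and the kinetochore motor CENPE (1.55, SE 0.39).

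**Figure D2:**
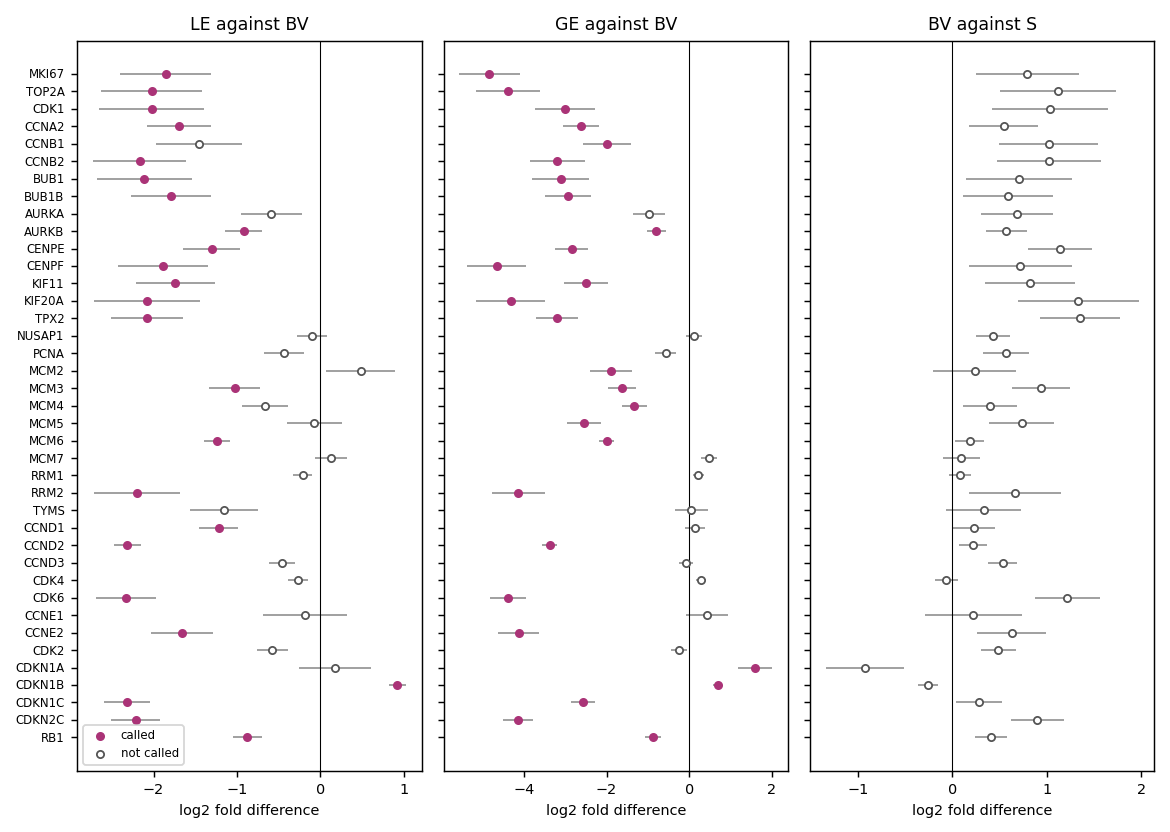
Log2 fold difference (points) with its standard error (bars) of the 39 members tested, for LE against BV, GE against BV and BV against S, where negative values mean lower in the compartment named first. Filled points passed a false discovery rate of 1% in the joint fit over 31 libraries, and none did so for BV against S.

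Over all 39 members tested, 28 were called between GE and BV, 26 of them lower in GE, beside 58.3% of the 13887 genes tested, with 29.9% lower in GE. The median difference of the members was -2.003 on the log2 scale, against 0.0013 for all genes. Between LE and BV 24 were called, 23 of them lower in LE (49.2% of all genes, 23.4% lower in LE, median of the members -1.24). Between GE and S 22 were called, 21 lower in GE (59.3%, 31.4% lower, median -1.68), between LE and GE 14, with 10 higher in LE (41.4%, 25.9% higher, median 0.76 against 0.13 for all genes), and between LE and S 7, with 6 lower in LE (50.6%, 23.9% lower, median -0.74). The members called were 71.8% of those tested for GE against BV and 61.5% for LE against BV, above the share of all genes, with 56.4% for GE against S, near it, and shares below it for LE against GE and against S. For LE against BV this rested on gilts P139 and C40, since without P139 only 13 members (33.3%) were called beside 47.7% of all genes, and without C40 17 (43.6%) beside 44.7%. With pregnant gilts alone 6 were called for LE against BV (15.4% beside 26.9%) and 12 for GE against BV (30.8% beside 34.1%), below the share of all genes in both. With cyclic gilts alone 16 were called for LE against BV (41% beside 35.3%) and 29 for GE against BV (74.4% beside 47.5%), above it in both. A member that passed the filter through BV alone had to be high there. Among the 22 members detectable in all 4 compartments, 13 (59.1%) were called between GE and BV, near the 55.1% of the 9727 genes detectable in all 4, and 13 between LE and BV, beside 48.4%. Between GE and S 8 of these 22 (36.4%) were called, below the 56.1% of the 9727 genes.

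No member differed between BV and S in the quasi-likelihood test of edgeR, against 7.19% of all genes, although 15 members (38.5%, beside 27.5% of all genes) had an unadjusted p under 0.05 and DESeq2 called 2 (10.3% of all genes). All 16 mitotic members had a positive BV to S difference (48.1% of all genes), with a median of 0.81. CDK1, CCNB2, BUB1 and AURKA passed the filter through BV alone, which favours this sign, and the members share libraries. The smallest adjusted p among the mitotic members was 0.0288 for CENPE (1.14, SE 0.34) in the edgeR fit. CDK6 had 1.22 (SE 0.35) and an adjusted p of 0.0209 in the same edgeR fit.

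Marker genes moved with these contrasts. The endothelial sum was 135 to 1052 CPM in LE and 16.2 to 185 CPM in GE, with 8 of its 9 genes higher in LE, and the leukocyte sum was 43.5 to 138 CPM in LE, 43.02 to 179 CPM in GE, 96.4 to 758 CPM in BV and 152 to 1149 CPM in S. In LE the library with the smallest endothelial sum, of gilt C78 with 135 CPM, also had the smallest mitotic sum, 71.2 CPM, but LE of gilt P43 had nearly as small a mitotic sum, 78.4 CPM, with an endothelial sum of 796 CPM. The part of these cell types in the results was not tested.

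The genes of S phase and DNA synthesis were more evenly spread. MCM6 (chr15:15923638-15978587) had 21.5 to 80.6 CPM in BV, 22.3 to 70.0 in S, 9.51 to 22.9 in LE and 5.97 to 15.6 in GE. GE lay below BV and S without overlap. Its level was lower in GE than in LE (-0.76 for GE minus LE, SE 0.17), lower in LE than in S (-1.06, SE 0.16) and lower in GE than in BV (-2.003, SE 0.17), whereas BV and S differed by 0.18 (SE 0.15) and did not pass the test. RRM2, the regulated subunit of ribonucleotide reductase, was 17.6-fold lower in GE than in BV. RRM2 was not detectable in GE, with 0 to 16 counts per library there, so this fold rests on few counts. Its partner RRM1, with 40.02 to 59.0 CPM in LE, 47.2 to 94.9 in GE, 45.5 to 66.8 in BV and 44.5 to 66.7 in S, was not called between GE and BV (0.22, SE 0.12).

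Among the other helicase subunits, MCM2 (-1.91, SE 0.51), MCM3 (-1.64, SE 0.34) and MCM4 (-1.34, SE 0.30) were lower in GE than in BV. MCM2 was not detectable in GE. MCM5 was lower too (-2.55, SE 0.41), but it was detectable in LE alone and so in neither GE nor BV. MCM7 was not called and had 0.48 (SE 0.20), with 22.9 to 68.9 CPM in GE and 25.1 to 39.03 CPM in BV. It overlaps AP4M1 on the opposite strand, and reads of the pair may be shared. MCM2 was higher in LE than in GE, by 2.39 (SE 0.48). MCM5 entered the test through LE, where it is high, so its fold between LE and GE is left out. Neither MCM2 nor MCM5 had a call between LE and BV. TYMS, thymidylate synthase, and PCNA were not called in any of the 6 pairs of compartments.

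The cyclins of the D type separated the compartments in different ways. CCND2 had 36.4 to 90.8 CPM in BV and 29.5 to 79.5 in S, against 5.23 to 16.1 in LE and 2.33 to 10.2 in GE. No LE or GE library reached the lowest BV or S library. The difference of GE from BV was -3.37 (SE 0.18), with an adjusted p of 5.29e-12 in edgeR's fit, and LE was higher than GE by 1.06 (SE 0.18). CCND1, another D-type cyclin, was lowest in LE, with 15.0 to 47.6 CPM there and 48.2 to 117 CPM in GE, which did not overlap, and LE was lower than GE by -1.36 (SE 0.24), lower than BV by -1.22 (SE 0.23) and lower than S by -0.99 (SE 0.23). CCND3, the remaining D-type cyclin, was called in no pair of compartments.

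Of the kinases, CDK6 had 189 to 481 CPM in BV, 83.8 to 225 in S, 24.3 to 107 in LE and 5.05 to 39.97 in GE. BV and LE did not overlap, nor did GE and S. CDK6 was 20.9-fold lower in GE than in BV (-4.39, SE 0.44) and 5.03-fold lower in LE than in BV (-2.33, SE 0.36). CDK4, which binds the same cyclins, varied little, with means of 32.6 CPM in S, 31.7 in BV, 38.0 in GE and 26.2 in LE, and was called only between LE and GE (-0.54, SE 0.12). Cyclin CCNE2, detectable in BV alone, had 0 to 0.984 CPM in GE, while CCNE1 (0.43, SE 0.51) and CDK2 (-0.24, SE 0.19) were not called.

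The inhibitors went in both directions. CDKN1B was higher in GE (0.69, SE 0.11) and in LE (0.93, SE 0.10) than in BV, with 87.5 to 349 CPM in GE, 145 to 365 in LE and 80.0 to 161 in BV, which overlap. CDKN1A, the p53 target p21, was higher in GE than in BV by 1.59 (SE 0.42) and lower in LE than in GE by -1.41 (SE 0.41). CDKN2C, the INK4 inhibitor p18 that binds CDK4 and CDK6, ran the other way, with 20.4 to 40.6 CPM in BV and 0.424 to 3.15 CPM in GE, 17.6-fold lower in GE. CDKN2C was not detectable in GE, with 2 to 16 counts per library there. CDKN1C, the inhibitor p57, was 5.93-fold lower in GE than in BV and 4.99-fold lower in LE, and was detectable in neither GE nor LE. RB1 was lower in GE than in BV by -0.88 (SE 0.18) and lower in LE than in BV by -0.87 (SE 0.17).

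The wider pathway was read from a list of 168 further cell cycle genes. Of 43 further mitotic genes tested, 29 were lower and 3 higher in GE than in BV (74.4% called, beside 58.3% of all genes). Of this list 23 genes were detectable in GE and 40 in BV, so the filter itself favours a lower level in GE. Lower were UBE2C, a ubiquitin-conjugating enzyme of mitotic exit (-4.76, SE 0.67), CDCA8 (-4.69, SE 0.87), ASPM (-4.26, SE 0.74), PBK (-4.17, SE 0.65) and KIF14 (-3.95, SE 0.79). The GE means of UBE2C, CDCA8, PBK and KIF14 were 0.293, 0.197, 0.539 and 0.449 CPM. These lie under the floor of 3 counts, so the 4 folds rest on few counts. Higher in GE were the kinase subunits CKS2 (2.86, SE 0.37) and CKS1B and the phosphatase CDC25C (1.78, SE 0.52).

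Of 47 further S phase genes 15 were called between GE and BV, 7 higher and 8 lower in GE, and this 31.9% is below the 58.3% of all genes. Among the 7 higher were GINS2 (1.74, SE 0.32), BRCA1 (1.53, SE 0.23), CDC45 (1.35, SE 0.20) and RPA3 (1.05, SE 0.13). PCLAF (-4.26, SE 0.73), DTL (-3.78, SE 0.50), POLE (-2.85, SE 0.44), CLSPN (-2.56, SE 0.34) and UHRF1 (-2.11, SE 0.52) were lower. The GE means of PCLAF, DTL and POLE were 0.381, 0.915 and 0.718 CPM, near or under the floor of 3 counts. GINS2 and CDC45 belong to the same replicative helicase as the MCM proteins, which were lower in GE in 5 of 6 cases. Of these, MCM5 was detectable in neither GE nor BV, and MCM2 not in GE.

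Among 24 further regulators of G1, 9 were called (37.5%, below the share of all genes), with MYC (-3.43, SE 0.33), E2F3 (-1.89, SE 0.28) and TFDP2 (-0.84, SE 0.15) lower in GE and E2F5 (1.26, SE 0.28) and the RB-like RBL1 (1.08, SE 0.18) among the 6 higher. Of 18 genes of cell cycle exit and p53 targets 13 were called (72.2%, beside 58.3% of all genes). Of these, 8 were higher in GE, such as TP53INP1 (2.02, SE 0.17), GADD45A (1.95, SE 0.28) and the antiproliferative BTG2 (1.81, SE 0.20).

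Gilts differed from each other in their mitotic genes, and more so in BV than in GE. In BV the 17 mitotic members summed to 385 CPM in cyclic gilt C128, 661 in C40, 741 in C42 and 204 in C78, and to 756 CPM in pregnant gilt P139, 146 in P39, 306 in P41 and 148 in P43. The highest and the lowest sum in BV were both from pregnant gilts, and the 2 states overlapped. In S the sums were 375, 173, 97.3 and 307 CPM in cyclic gilts C128, C40, C42 and C78 and 234, 115, 84.8 and 173 CPM in pregnant gilts P139, P39, P41 and P43.

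The order of the gilts was not the same in BV and S. Gilt C42 was the highest cyclic gilt in BV and the lowest in S, and gilt C78 had the lowest cyclic sum in BV and the next to highest in S. Accordingly BV held the highest level of all 17 mitotic genes in gilts P139, P41 and C42 and of 16 in gilt C40, whereas in gilt C78 S was highest for 14 and in gilt P43 for 10 of the 17. Gilt C78 was also uneven within BV, where MKI67 had 9.35 CPM and TOP2A 20.4 CPM, but CENPE 84.6 CPM, more than in the other 3 cyclic gilts (33.96 to 62.5 CPM).

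The spread was smallest in GE, where the mitotic sum ran from 58.5 to 102 CPM, 1.74-fold, beside 5.18-fold in BV, 4.42-fold in S and 3.41-fold in LE. NUSAP1 made up much of the sum in GE. Without it the GE range was 22.0 to 59.0 CPM, or 2.68-fold. The leukocyte sum of BV was 616, 620, 656 and 283 CPM in gilts C128, C40, C42 and C78 and 96.4, 269, 526 and 758 CPM in gilts P139, P39, P41 and P43. The smooth muscle sum was 18835 CPM in gilt C78 and 1517 to 9140 CPM in the other BV libraries, and its part in the result was not tested.

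**Figure D3:**
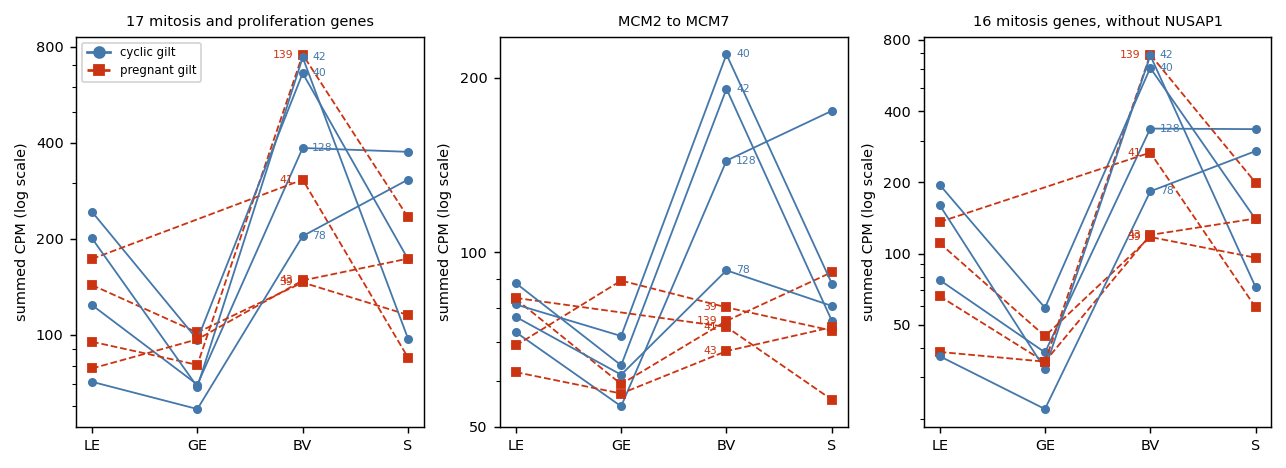
Summed CPM (log scale) of the mitotic genes, of MCM2 to MCM7 and of the mitotic genes without NUSAP1 in each compartment, with 1 line per gilt (circles cyclic, squares pregnant, gilt numbers beside the BV points, no GE point for gilt P41). Gilts P139, C42 and C40 peak in BV for the mitotic genes, and for MCM2 to MCM7 the 4 cyclic gilts lie above the 4 pregnant ones in BV.

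Pregnancy was compared with the cyclic state within each compartment, to ask which genes respond at the onset of conceptus attachment. MCM6 in BV was the only member called, lower in pregnant gilts, by the study's rule, in which LE is held to a false discovery rate of 1% and the largest unadjusted p called there serves as the limit elsewhere. In the quasi-likelihood test used here that limit came to 3.28e-04. The quasi-likelihood test of edgeR called 1 of 37 members in BV (1.86% of all genes), 0 of 31 in S (0.293%), 0 of 23 in GE (0.748%) and 0 of 30 in LE (3.32%). The unadjusted p was under 0.05 for 14 members in BV (37.8%, beside 28.5% of all genes), 6 in LE (20% beside 26.9%), 5 in GE (21.7% beside 23%) and 5 in S (16.1% beside 14.5%).

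The robust test and DESeq2 called more members in LE, GE and BV, and more of all genes in every compartment. The likelihood ratio test with robust dispersions, which the study used, called 11 members in BV (11% of all genes), 2 in LE (11.8%), 2 in GE (6.66%) and 0 in S (3.16%). DESeq2 called 7 in BV (8.5%), 3 in LE (11.2%), 3 in GE (6.64%) and 0 in S (2.6%). At a limit of 5% within each compartment, the quasi-likelihood test passed 5 members in BV (8.63%), 2 in LE (10.7%), 0 in GE (1.86%) and 0 in S (0.0335%).

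**Figure D4:**
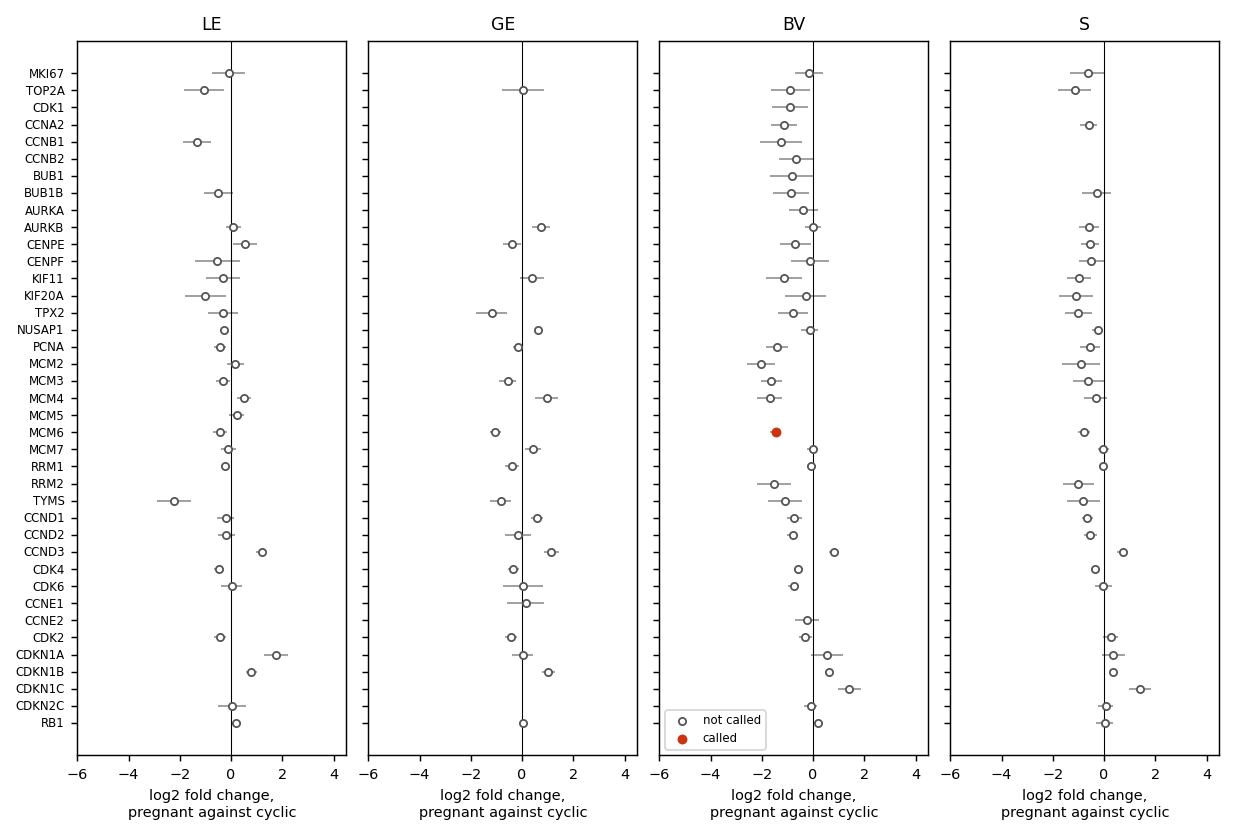
Log2 fold change of pregnant against cyclic gilts (points) with its standard error (bars) for the members detectable in LE, GE, BV and S, with negative values lower in pregnancy. The filled point is MCM6 in BV, the only call of the quasi-likelihood test, and in BV 32 of 37 points lie left of 0.

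MCM6 in BV had 60.2 CPM in cyclic gilt C128, 79.1 in C40, 80.6 in C42 and 40.8 in C78, and 22.4 CPM in pregnant gilt P139, 23.9 in P39, 26.8 in P41 and 21.5 in P43. All 4 pregnant libraries lay below all 4 cyclic ones. It fell by 1.45 on the log2 scale (SE 0.22), or 2.74-fold lower in pregnancy, with an adjusted p of 0.0132 in edgeR's quasi-likelihood test, which is above 1% but within the p limit taken from LE. Without pregnant gilt P39 or without pregnant gilt P43 this call was lost, and the fold change stayed between -1.62 and -1.33 whichever library was left out.

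In S MCM6 had 70.0, 38.4, 39.7 and 33.4 CPM in cyclic gilts C128, C40, C42 and C78 and 30.9, 24.7, 22.3 and 26.9 CPM in pregnant gilts P139, P39, P41 and P43, again without overlap, with -0.79 (SE 0.25) and an adjusted p of 0.207 in edgeR. In GE it had 15.6, 11.99, 14.3 and 12.7 CPM in the cyclic gilts and 7.48, 6.29 and 5.97 CPM in pregnant gilts P139, P39 and P43, with -1.05 (SE 0.22) and an adjusted p of 0.0539 in edgeR. DESeq2 called it in GE. In LE the groups overlapped, with 22.2, 22.9, 22.8 and 10.5 CPM against 9.51, 14.3, 18.6 and 14.7 CPM, and the value was -0.43 (SE 0.29).

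The genes of DNA synthesis in BV, MCM6 included, had values below 0 in 9 of 9 tested, with a median of -1.45, beside 49.8% of all genes and a median of 0.0018. An unadjusted p under 0.05 was found for 6 of the 9, beside 14.1% of all genes in that direction. MCM3, another helicase subunit, had 17.5, 37.5, 28.4 and 12.7 CPM in cyclic gilts C128, C40, C42 and C78 and 11.8, 4.17, 7.66 and 7.42 CPM in pregnant gilts P139, P39, P41 and P43. The groups did not overlap, and the value was -1.63 (SE 0.39) with an adjusted p of 0.0383 in edgeR's quasi-likelihood test, which is above the limit for a call.

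MCM2 had 12.8, 18.6, 16.8 and 2.55 CPM in the same cyclic gilts and 1.69, 3.03, 3.83 and 3.71 CPM in the pregnant ones, with cyclic gilt C78 among the pregnant values, and -2.03 (SE 0.54). MCM4 had -1.69 (SE 0.49), PCNA -1.41 (SE 0.43) and RRM2 -1.53. In each of these 3 genes cyclic gilt C78 fell among the pregnant gilts. MCM7 (-0.02) and RRM1 did not follow, with MCM7 at 25.1 to 37.5 CPM in cyclic and 25.8 to 39.03 CPM in pregnant BV. MCM7 overlaps AP4M1 on the opposite strand, whose own value in BV was 0.62 (SE 0.23), and reads of the pair may be shared. Without cyclic gilt C78 MCM2 was called as well, at -2.35. The robust likelihood ratio test called MCM2, MCM3, MCM4, MCM6 and PCNA lower in BV, and DESeq2 called MCM2, MCM3, MCM4 and MCM6.

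Summed over MCM2 to MCM7, BV had 144, 219, 191 and 93.1 CPM in cyclic gilts C128, C40, C42 and C78 and 76.1, 80.3, 74.3 and 67.5 CPM in pregnant gilts P139, P39, P41 and P43. Gilt P139, whose mitotic sum in BV was the highest of all, had 22.4 CPM of MCM6 and 1.69 CPM of MCM2 there, with the other pregnant gilts or below them. In S the cyclic sums were 76.2 to 175 CPM and the pregnant ones 55.7 to 92.4 CPM, which overlap.

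The cell makeup of BV differed between the states in the markers. The 9 epithelial markers, all detected, summed to 2.56 to 48.9 CPM in cyclic and 161 to 300.3 CPM in pregnant BV, without overlap. The 8 smooth muscle and pericyte markers, all detected, summed to 6567 to 18835 CPM in cyclic and 1517 to 8052 CPM in pregnant BV. The endothelial sum was 1573 to 3012 CPM and 1883 to 3115 CPM, and the leukocyte sum 283 to 656 CPM and 96.4 to 758 CPM. The part of these cell types in the lower MCM6 of BV was not tested.

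CCND3 (chr7:37087336-37182462), the D-type cyclin found at much the same level in all compartments, was higher in every pregnant than in every cyclic gilt in all 4 of them, without a call in the quasi-likelihood test. Markers moved with the state here too. The epithelial sum was 2943 to 3359 CPM in cyclic and 2327 to 2659 CPM in pregnant LE, and the leukocyte sum 43.02 to 67.8 CPM in cyclic and 97.0 to 179 CPM in pregnant GE, both without overlap, and their part in the results of LE and GE was not tested. In LE CCND3 had 17.4, 20.8, 18.0 and 23.2 CPM in cyclic gilts C128, C40, C42 and C78 and 43.7, 57.6, 30.8 and 48.7 CPM in pregnant gilts P139, P39, P41 and P43, with a log2 fold change of 1.19 (SE 0.22) and an adjusted p of 0.0116 in edgeR. In GE the values were 17.1, 37.8, 24.8 and 28.8 CPM and, for gilts P139, P39 and P43, 76.9, 61.8 and 42.1 CPM, with 1.14 (SE 0.30) and an adjusted p of 0.0851. The groups did not overlap in LE or GE, and the lowest pregnant value was 30.8 CPM in LE, from gilt P41, and 42.1 CPM in GE. Without gilt P41 CCND3 was called in LE, at 1.35.

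In BV CCND3 had 23.5, 38.1, 36.9 and 24.6 CPM in the cyclic and 45.3, 66.3, 48.3 and 56.4 CPM in the pregnant gilts (0.82, SE 0.20, edgeR adjusted p 0.0414), and in S 23.4, 19.1, 16.4 and 28.2 CPM against 40.7, 34.9, 28.5 and 40.5 CPM (0.73, SE 0.20, edgeR adjusted p 0.173). In S the margin was narrow, with 28.2 CPM the highest cyclic and 28.5 CPM the lowest pregnant value. The robust test and DESeq2 each called CCND3 in LE, GE and BV. CCND3 overlaps TAF8 on the opposite strand, whose own values were 0.11 (LE), -0.09 (GE), 0.16 (BV) and 0.12 (S).

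CDKN1B (chr5:59731224-59735831) also separated the states in every compartment. In LE it had 145, 148, 146 and 196 CPM in the cyclic and 250, 365, 198 and 280 CPM in the pregnant gilts, in GE 87.5, 135, 141 and 149 CPM against 236, 349 and 205 CPM. The lowest pregnant LE library, 198 CPM in gilt P41, was just above cyclic gilt C78 with 196 CPM. In BV the values were 83.0, 80.0, 87.7 and 101 CPM against 138.7, 161, 106 and 134 CPM, and in S 95.7, 119, 129 and 113 CPM against 174, 144, 135 and 133 CPM, without overlap in either. The fold changes were 0.63 (SE 0.15, adjusted p 0.0379) in BV, 1.02 (SE 0.25, adjusted p 0.0777) in GE, 0.79 (SE 0.22, adjusted p 0.0520) in LE and 0.37 (SE 0.14, adjusted p 0.295) in S, all from edgeR's quasi-likelihood test. The robust test and DESeq2 called it in GE and BV.

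CDKN1C (chr2:2019391-2022092), the inhibitor p57, had 3.70, 15.6, 6.81 and 3.40 CPM in BV of the cyclic gilts and 17.8, 27.7, 18.0 and 15.96 CPM in the pregnant ones. Cyclic gilt C40, at 15.6 CPM, came close to the pregnant values without reaching them, and without it the gene was called in BV at 2.07. The value was 1.41 (SE 0.45, edgeR adjusted p 0.0779) in BV and 1.42 (SE 0.43, edgeR adjusted p 0.197) in S. In LE and GE the gene was under the authors' filter, with 0.455 to 1.97 CPM in cyclic and 3.50 to 4.71 CPM in pregnant LE and 1.08 to 1.62 CPM against 2.39 to 3.74 CPM in GE, again without overlap.

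CDKN1A had 2.41, 2.40, 5.42 and 3.87 CPM in LE of the cyclic gilts and 18.5, 14.3, 5.14 and 9.28 CPM in the pregnant ones, with 1.75 (SE 0.47) and an adjusted p of 0.0450 in edgeR. Pregnant gilt P41, at 5.14 CPM, lay among the cyclic gilts. The robust test and DESeq2 called CDKN1A in LE. In GE its value was near 0, with a fold of 1.01. Of the inhibitors and RB1 the values were above 0 for 5 of 5 tested in S, 4 of 5 in BV, 3 of 3 in GE and 4 of 4 in LE, and none was called by the quasi-likelihood test.

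**Figure D5:**
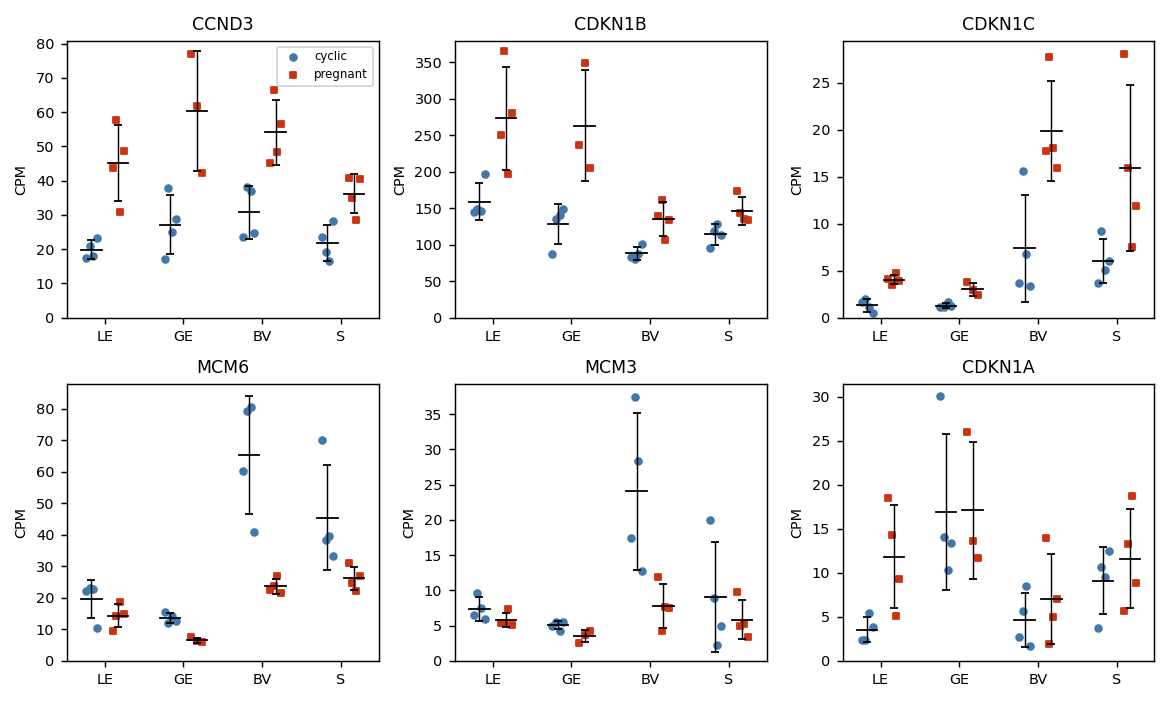
CPM of CCND3, CDKN1B, CDKN1C, MCM6, MCM3 and CDKN1A in each library of LE, GE, BV and S (circles cyclic, squares pregnant), with the mean (line) and SD (bar) of 4 gilts, or 3 in pregnant GE. CCND3 and CDKN1B lie higher in every pregnant library of every compartment, and MCM6 lies lower in every pregnant library of GE, BV and S.

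Groups that do not overlap were found for few members. In LE pregnant values lay above all cyclic ones for 2 of 30 members (10.3% of all genes) and below them for TYMS alone (9.12%). In GE 4 members lay above (11.6%), AURKB and NUSAP1 beside CCND3 and CDKN1B, and 2 below (11.3%), MCM3 and MCM6. In BV 3 lay above (8.68%) and 4 below (9.54%), CCND2 and CDK4 beside MCM3 and MCM6. In S 2 lay above (3.62%) and 2 below (5.19%), MCM6 and CDK4. With 3 pregnant GE libraries such a separation is easier to reach there.

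TYMS in LE had 18.7, 3.50, 5.42 and 6.37 CPM in the cyclic and 2.83, 1.91, 1.86 and 0.320 CPM in the pregnant gilts, with -2.22 (SE 0.66) and an adjusted p of 0.0610 in edgeR, and only DESeq2 called it. CCND2 in BV had 90.8, 41.96, 70.7 and 60.8 CPM against 38.5, 37.5, 36.4 and 38.6 CPM, with -0.80 (SE 0.22, edgeR adjusted p 0.0510), and the 4 pregnant gilts lay close together. Without cyclic gilt C40 CCND2 was called, at -0.97. CDK4 had -0.58 (SE 0.17) in BV and -0.35 (SE 0.17) in S. CDK6 in BV had 317, 343, 449 and 481 CPM in the cyclic and 323, 189, 219 and 202 CPM in the pregnant gilts, with gilt P139 among the cyclic values, and -0.76 (SE 0.21, edgeR adjusted p 0.0546).

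The mitotic genes had no call by pregnancy in any compartment, by the quasi-likelihood test. In BV all 16 tested had values below 0, with a median of -0.74, and in S all 11 tested, but 1 of 16 in BV had an unadjusted p under 0.05, and the groups overlapped for every one of them in BV. MKI67 in BV had 36.6, 59.6, 69.0 and 9.35 CPM in the cyclic and 76.1, 23.1, 29.1 and 28.6 CPM in the pregnant gilts, so that the highest library was pregnant and the lowest cyclic. In LE 9 of 11 were below 0 and in GE 2 of 6. The robust test called CENPE lower in BV, and DESeq2 called no mitotic member in any compartment.

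Over all members, 32 of the 37 tested in BV had values below 0 (median -0.70), 24 of 31 in S (median -0.53), 19 of 30 in LE (median -0.22) and 10 of 23 in GE (median 0.03), beside 49.8%, 49.9%, 50.6% and 50.7% of all genes. The members share libraries, so these are not independent counts. E2F1, below the filter everywhere, had 3.03, 11.4, 6.25 and 1.70 CPM in cyclic and 1.69, 0, 1.92 and 2.23 CPM in pregnant BV, and 7.93, 2.80, 0.729 and 2.74 CPM in cyclic and 0.234, 0.380, 0.655 and 0.681 CPM in pregnant S. The 4 pregnant S libraries and C42 held only 1 or 2 E2F1 counts each, under the floor of 3 counts.

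The interaction of pregnancy with compartment was tested in the joint fit for the 22 members detectable in all 4 compartments. None passed a false discovery rate of 1% in edgeR's quasi-likelihood test, beside 3.05% of all 9727 genes, 4 had an unadjusted p under 0.05 (18.2%, beside 25.4%) and DESeq2 called 1 (8.67% of all genes). MCM4 had the smallest adjusted p, 0.0178, with values of -1.69 in BV, -0.33 in S, 0.96 in GE and 0.50 in LE. MCM6 followed with an adjusted p of 0.108. For CCND3 it was 0.602 and for CDKN1B 0.253. A p that misses the threshold does not show that the compartments respond alike.

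In the wider pathway the quasi-likelihood test called pregnancy for 3 genes, all in LE, where 114 were tested, and this 2.63% is below the 3.32% of all genes. CKS2, a small subunit of cyclin-dependent kinases, was higher in pregnant LE, with a mean of 146 against 35.6 CPM (2.04, SE 0.34, edgeR adjusted p 0.00750), and UNG, uracil-DNA glycosylase, was higher with 44.8 against 14.8 CPM (1.60, SE 0.28, edgeR adjusted p 0.00911). CKAP2L, a spindle protein, was lower, with 4.74 against 19.4 CPM (-1.99, SE 0.29, edgeR adjusted p 0.00427). Of 17 genes of cell cycle exit and p53 targets tested in LE, 10 had an unadjusted p under 0.05 (58.8%, beside 26.9% of all genes). The robust test called 7 of the 17 (41.2% beside 11.8%) and DESeq2 6 (35.3% beside 11.2%). In LE the S phase, mitotic and G1 genes of the wider list had 19%, 15.6% and 30.4% under 0.05. In BV no further gene was called, while 35 of 40 S phase genes and 37 of 40 mitotic genes of the wider list had values below 0, with medians of -0.41 and -0.56, and 16 (40%) and 7 (17.5%) of them had an unadjusted p under 0.05, beside 28.5% of all genes. In S the S phase genes of the wider list were even, with 18 of 38 below 0, whereas 27 of 33 mitotic genes were below 0. The effect of pregnancy differed between compartments for 3 of 82 genes of the wider list tested, and this 3.66% is near the 3.05% of all genes. The 3 were the primase subunit PRIM1 (adjusted p 0.00859), the mitotic inhibitor kinase WEE1 (adjusted p 0.00348) and BTG2 (adjusted p 0.00228) in edgeR's joint fit.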

How the data were processed

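Counts were analysed for LE, GE, BV and S of 8 gilts on Day 14, grouped by the submitters' labels, with 1 library per gilt and compartment and each gilt a separate animal. GE of pregnant gilt P41 and complete endometrial tissue were not analysed here. The deposited values are whole-number read counts per NCBI gene, made by the authors with Trim Galore, Hisat2 on Sscrofa11.1, removal of PCR duplicates with nudup and QuasR, without versions. RNA input was in the picogram range. The CPM limit of the authors' filtered tables, the strand setting and the pool of each library are not given in the sources used here.

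Depth was 2415216 to 7081556 counts per library, of which 5.20% to 16.9% came from 2 ribosomal RNA genes, and no library was a copy of another. Pregnancy was tested on the filtered tables with the quasi-likelihood test of edgeR 4.0.16 (R 4.3.3, TMM), with Benjamini-Hochberg adjustment over the compartment's genes. SEs were derived from the coefficient and its F statistic. Compartments and their interaction with pregnancy were tested in a joint fit with the gilt as a block, at a false discovery rate of 1% over 13887 and 9727 genes. The gilt number marks the same animal: deviations of libraries of the same gilt correlated with a median of 0.165 over 45 pairs, against -0.0478 over 135 pairs of other gilts. Alternatives were the robust likelihood ratio test, DESeq2 1.42.0, RLE normalisation, other filters, no block, a false discovery rate of 5%, libraries without the ribosomal RNA genes, 1 state alone and each library or gilt left out. The scripts were tested on simulated data. Promoters were read from the RefSeq annotation of Sscrofa11.1.

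The members and lists were chosen with earlier results of these data known. All members are accounted for. From the other cell cycle lists the text names called genes, at most 5 per direction by size, and marker lists are given as sums. An item that this rule would name, and the promoter sequence of another, are not reported here.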

Additional observations from a re-analysis of the deposited data

Results flagged for a closer look

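Among 219 groups of 4 libraries, in which a member's level was compared within 1 compartment and state, the highest or lowest library stood far from the other 3 in 10, as its gap to the nearest library exceeded the 95% limit of Dixon's test. Chance alone flags about 1 in 20 such groups, so that 10 of 219 is no more than chance gives. Gilt P139 stood above the other pregnant BV libraries for 3 mitotic genes, with 76.1 CPM of MKI67 (the next library had 29.1), 14.0 CPM of AURKB (next 7.28) and 88.4 CPM of CENPE (next 21.1). It was also the highest pregnant S library for TYMS, with 9.12 CPM (next 3.93). Gilt C78 stood apart from the other cyclic gilts with 20.8 CPM of NUSAP1 in BV (next 48.1), 10.5 CPM of MCM6 in LE (next 22.2) and 196 CPM of CDKN1B in LE (next 148). MCM7 was high in BV of pregnant gilt P39, with 39.03 CPM (next 26.8), and in S of cyclic gilt C128, with 37.7 CPM (next 25.2). MCM3 was high in LE of pregnant gilt P41, with 7.28 CPM (next 5.41).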

How the results depend on the processing

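Of 95 calls of members between compartments, 0 reversed under the alternatives, of which the genes in all 4 filtered tables covered only 47, and the calls lost ranged from 0 with DESeq2 to 59 with pregnant gilts alone. Members called by pregnancy in LE, GE and BV numbered 2, 2 and 11 in the robust likelihood ratio test, 3, 3 and 7 with DESeq2 and 2, 0 and 5 at a limit of 5%, where the quasi-likelihood test called 0, 0 and 1. Leaving out 1 library gave 0 to 1 in LE and 0 to 3 in BV (3 without cyclic gilt C40, 2 without cyclic gilt C78, 0 without pregnant gilt P39 or P43). The calls gained for CCND3, MCM2, CDKN1C and CCND2 came when the library nearest to the other state was left out. Such an omission itself favours a call. With genes in all 4 filtered tables alone, and so fewer members tested, 8 of 22 were called for LE against GE, beside 3693 of 9727 genes. For LE against BV 13 (59.1% beside 48.4% of all genes), for GE against BV 13 (59.1% beside 55.1%) and for GE against S 8 (36.4% beside 56.1%) were called. Pregnant gilts alone gave 5 for LE against GE (12.8% beside 21.6% of all genes), 6 for LE against BV (15.4% beside 26.9%), 4 for LE against S (10.3% beside 26.7%), 12 for GE against BV (30.8% beside 34.1%) and 11 for GE against S (28.2% beside 37%). Cyclic gilts alone gave 5 for LE against GE (12.8% beside 26.6% of all genes), 16 for LE against BV (41% beside 35.3%), 4 for LE against S (10.3% beside 36.3%), 29 for GE against BV (74.4% beside 47.5%) and 18 for GE against S (46.2% beside 47.6%). Each state alone has fewer samples. Leaving out 1 gilt gave 13 to 27 for LE against BV (13 without gilt P139) and 0 to 1 for BV against S (1 without cyclic gilt C128 or C78), and DESeq2 called 2 for BV against S. For LE against BV that was 33.3% to 69.2% of members, beside 43.4% to 47.7% of all genes. For BV against S 1036 of 13887 genes were called without C128, 699 without C78 and 10.3% with DESeq2. The interaction gave 1 call at a false discovery rate of 5% (beside 923 of 9727 genes) and 1 with DESeq2 (8.67% of all genes). Without the replicate block 15, 26, 7, 28, 22 and 0 members were called for LE against GE, BV and S, GE against BV and S, and BV against S, and the pairing changed no count by over 1.5 times. In the same order 5566, 6594, 6736, 7900, 7981 and 825 of all 13887 genes were called. The cause of these differences was not tested. Low counts limit the mitotic genes in GE, where the 7 libraries held 43 MKI67 counts in all.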
